A study of Mus musculus with 32 samples.

Results

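The liver makes most of the plasma proteins that clot blood, hold clotting in check and dissolve clots, and 32 genes of these proteins and of their receptors were followed in livers of Gclc KO and Gclc WT mice. They were taken by symbol from the 20821 symbols of the table. The 30 genes that averaged 1 TPM or more (a length-corrected share of the transcripts of a library) across the 8 mice were tested, among 11284 genes that passed the same filter. The remaining members were F13a1, which encodes the catalytic subunit of factor XIII, and Plat, which encodes tissue plasminogen activator. Their means were 0.336 and 0.631 TPM, and no fold change is given for them.

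GCLC, the product of Gclc, is the catalytic part of the ligase that makes the precursor of glutathione (GSH). The 4 Gclc KO mice carried floxed Gclc alleles (Gclc f/f) together with Rosa26-CreERT2, a recombinase present throughout the body that acts once tamoxifen is given. The 4 Gclc WT mice carried the floxed alleles without the recombinase. All were adults, and per the labels all received tamoxifen at 150 mg/kg into the peritoneum for 5 days and gave their livers 14 days later. The methods of the study give a somewhat higher dose of tamoxifen, so the dose is not settled here. No mice carried the active recombinase without floxed Gclc, so activity of CreERT2 and loss of Gclc cannot be told apart, and the deletion was not limited to the liver. The tissue was whole liver, in which fewer cells of a type and less RNA per cell cannot be told apart. Each mouse was measured in 4 libraries, which were averaged into 1 value per mouse.

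Gclc mRNA was 26.9, 16.1, 18.6 and 26.8 TPM in Gclc KO mice 1 to 4, against 82.3, 114.1, 77.8 and 138 TPM in Gclc WT mice 1 to 4 (log2 fold change −2.17, SE 0.23, adjusted p = 0.000612, limma), so every Gclc KO mouse was below every Gclc WT mouse. Sequencing depth is unknown, because TPM do not keep it. Several mice stood apart in ways that the genotype does not name. Xist, the RNA that silences an X chromosome in females, was above 1 TPM in Gclc KO 2, Gclc KO 3 and Gclc WT 3, at 30.2, 22.8 and 25.7 TPM, so each genotype held mice with and without it. Gclc WT 1 held RNA of exocrine pancreas, with 8 marker genes summing to 277 TPM against at most 11.95 TPM in any other mouse. In Gclc WT 3 the marker sum of monocytes and neutrophils was highest of all mice, at 482 TPM. Where the call of a member changed without these mice, or with Xist as a term of the fit, both values are given. The mice without Xist were Gclc KO 1 and 4 and Gclc WT 1, 2 and 4. A call lost among these fewer mice need not mean that it depends on sex. Alternative fits were also read for the lists of other regulators, vitamin K genes and transcription factors below. They were not read for acute phase genes or cell type markers, so how far those calls depend on 1 mouse was not tested.

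As background, clotting begins when tissue factor meets factor VII, or when the contact system is activated on a surface, and runs through a chain of proteases to thrombin. Thrombin cuts fibrinogen into fibrin, which factor XIII then cross-links. Antithrombin, heparin cofactor II, tissue factor pathway inhibitor and the protein C and protein Z systems restrain the chain, and plasmin dissolves the fibrin. Hepatocytes secrete most of these proteins, while factor VIII, von Willebrand factor and thrombomodulin come mainly from endothelial cells. Fibrinogen is also a classical acute phase protein, made in larger amounts during inflammation.

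The fibrinogen genes, Serpina10, Kng2 and Thbd were higher in Gclc KO livers, and Serpind1, Klkb1 and Proc were lower. Of the 30 genes tested, 6 (20%) were called higher, where 12.8% of all genes tested were, and 3 (10%) were called lower, where 8.61% of all genes tested were (limma on log2(TPM + 1), Benjamini-Hochberg adjusted p under 0.05). The other 21 were not called. The groups did not overlap for 5 members (16.7%), against 24.7% of all genes tested. The median log2 fold change was 0.10 over the 30 members and 0.09 over all genes tested, and 17 members had a positive and 13 a negative value. At an unadjusted p under 0.05, 8 members were higher and 7 lower. The shares of all genes under that unadjusted p were not counted, and are at least the 12.8% and 8.61% given above. Counts at an unadjusted p, here and below, are thus a description and no result about the members. Shares near those of all genes say nothing particular about the members as a list, which moved in both directions. By role, the called genes were 3 of 4 genes of fibrinogen and factor XIII, 0 of 8 procoagulant factors, 2 of 5 contact system genes, 4 of 8 anticoagulants and 0 of 5 genes of fibrinolysis.

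**Figure D1:**
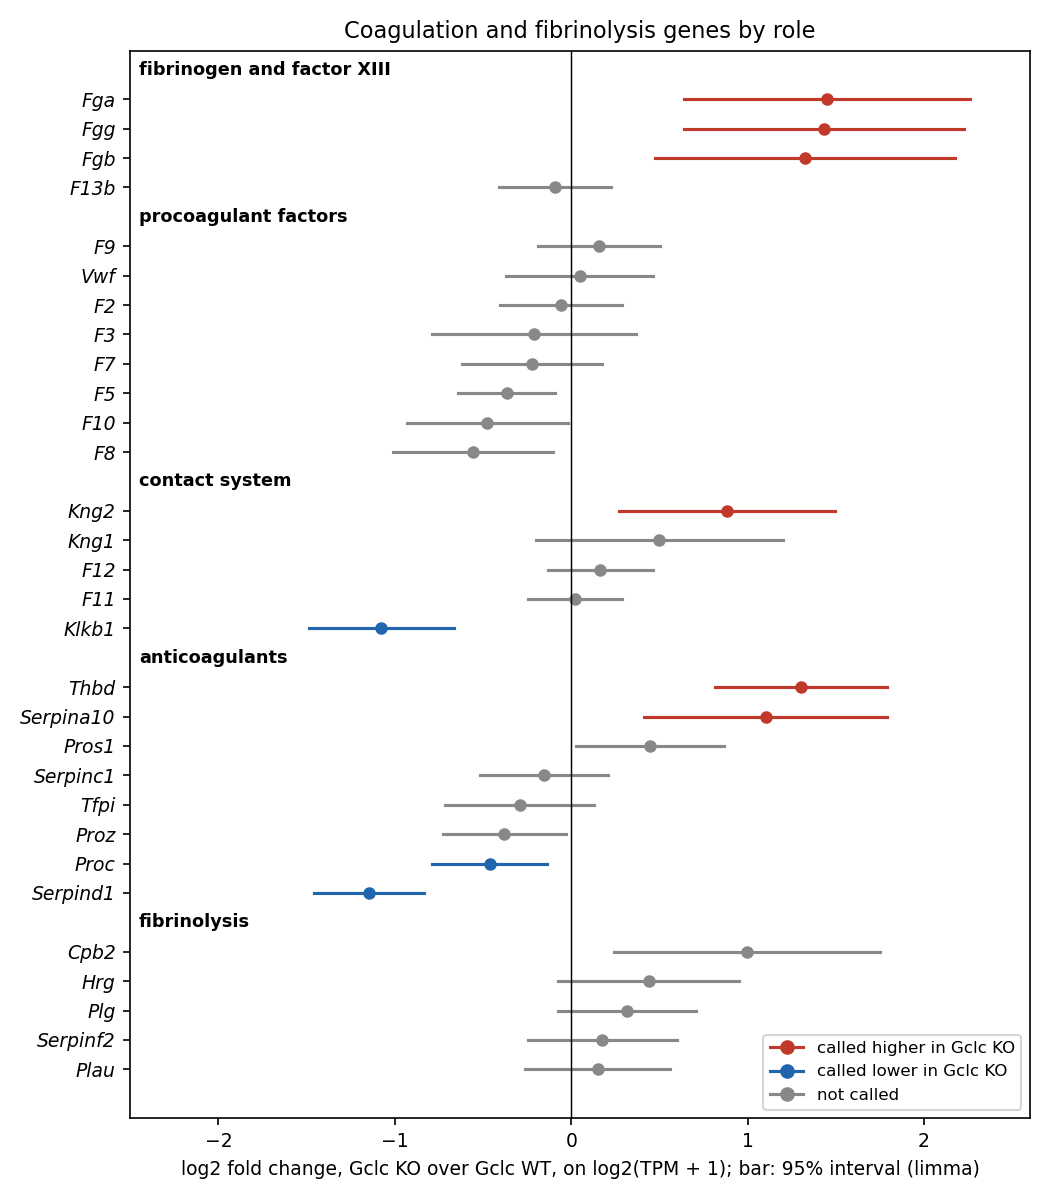
Log2 fold change of Gclc KO over Gclc WT livers on the log2(TPM + 1) scale (horizontal axis) for the 30 tested genes, in blocks by role; points are limma estimates over 4 mice per genotype and bars 95% intervals. The 6 genes called higher run from 0.88 to 1.45, the 3 called lower from −1.15 to −0.46, and all 8 procoagulant factors lie among the genes not called.

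Fibrinogen is built from 3 chains, encoded by Fga, Fgb and Fgg, which lie side by side on mouse chromosome 3. Fga (Entrez 14161), the alpha chain gene, had 8286, 12481, 8389 and 5356 TPM in Gclc KO mice 1 to 4, against 2258, 2130.4, 5852 and 2946 TPM in Gclc WT mice 1 to 4. Its mean was 8628 ± 2928 TPM in Gclc KO and 3296 ± 1741 TPM in Gclc WT livers (SD, n = 4 each), 2.74-fold higher on the log2(TPM + 1) scale (log2 fold change 1.45, SE 0.36, adjusted p = 0.0216, limma). Fgb (Entrez 110135), the beta chain gene, had 12456, 18081, 11174 and 7906 TPM in Gclc KO mice 1 to 4, against 3409, 3535, 9867 and 4254 TPM in Gclc WT mice 1 to 4. It was 2.504-fold higher (log2 fold change 1.32, SE 0.38, adjusted p = 0.0353, limma). Fgg (Entrez 99571), the gamma chain gene, had 10469.7, 14493, 10086 and 6671 TPM in Gclc KO mice 1 to 4, against 2793, 2722, 7283 and 3441 TPM in Gclc WT mice 1 to 4, and was 2.71-fold higher (log2 fold change 1.44, SE 0.35, adjusted p = 0.0209, limma). In all 3 genes Gclc KO 2 was the highest mouse and Gclc KO 4 the lowest of its group, and Gclc WT 3 lay above Gclc KO 4, so the groups overlapped by that 1 mouse of each. Without Gclc WT 3 the log2 fold changes were 1.77, 1.68 and 1.76 for Fga, Fgb and Fgg, with adjusted p between 0.00221 and 0.00338. Without Gclc KO 2, Gclc WT 1, Gclc WT 2 or Gclc WT 4 the call was lost for each of the 3 genes, with log2 fold changes of 1.12 to 1.44 and adjusted p between 0.0515 and 0.104. The call was also lost for Fga without Gclc KO 3 (adjusted p = 0.0505) and for Fgb without Gclc KO 1 (0.0759) or Gclc KO 3 (0.0701). With no filter on low values it was lost for all 3 genes (adjusted p 0.0619 to 0.113). The direction was positive under all 25 alternatives, with adjusted p from 6.3e-08 to 0.0693 for Fga, 7.78e-07 to 0.113 for Fgb and 4.25e-08 to 0.0683 for Fgg. The lowest of these came from the fit with the 32 libraries as units and the mouse as a random effect, which assumes a single correlation between libraries for all genes. Libraries of a mouse agreed closely for these genes, so the adjusted p of that fit are too small. Among the other alternatives the lowest values were those without Gclc WT 3. Where such a range is given for members below, its lowest value came from the same fit of libraries.

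Summed over the 3 chains, fibrinogen transcripts were 31212, 45055, 29649.8 and 19932 TPM in Gclc KO mice 1 to 4, against 8459, 8388, 23002 and 10641 TPM in Gclc WT mice 1 to 4. They made up 3.15 ± 1.03% of all TPM in Gclc KO and 1.26 ± 0.70% in Gclc WT livers (SD, n = 4 each). The makeup of the sum differed little between mice while the sum itself ranged widely. TPM is a per-length scale, so the chains can be set side by side as levels. Fga held 27.4 ± 0.793% of the sum in Gclc KO and 26.3 ± 1.097% in Gclc WT livers. The share of Fgb was 39.3 ± 1.12% in Gclc KO and 41.3 ± 1.42% in Gclc WT livers. Fgg held 33.3 ± 0.793% in Gclc KO and 32.4 ± 0.555% in Gclc WT livers. For each chain the ranges of the 2 genotypes overlapped.

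**Figure D2:**
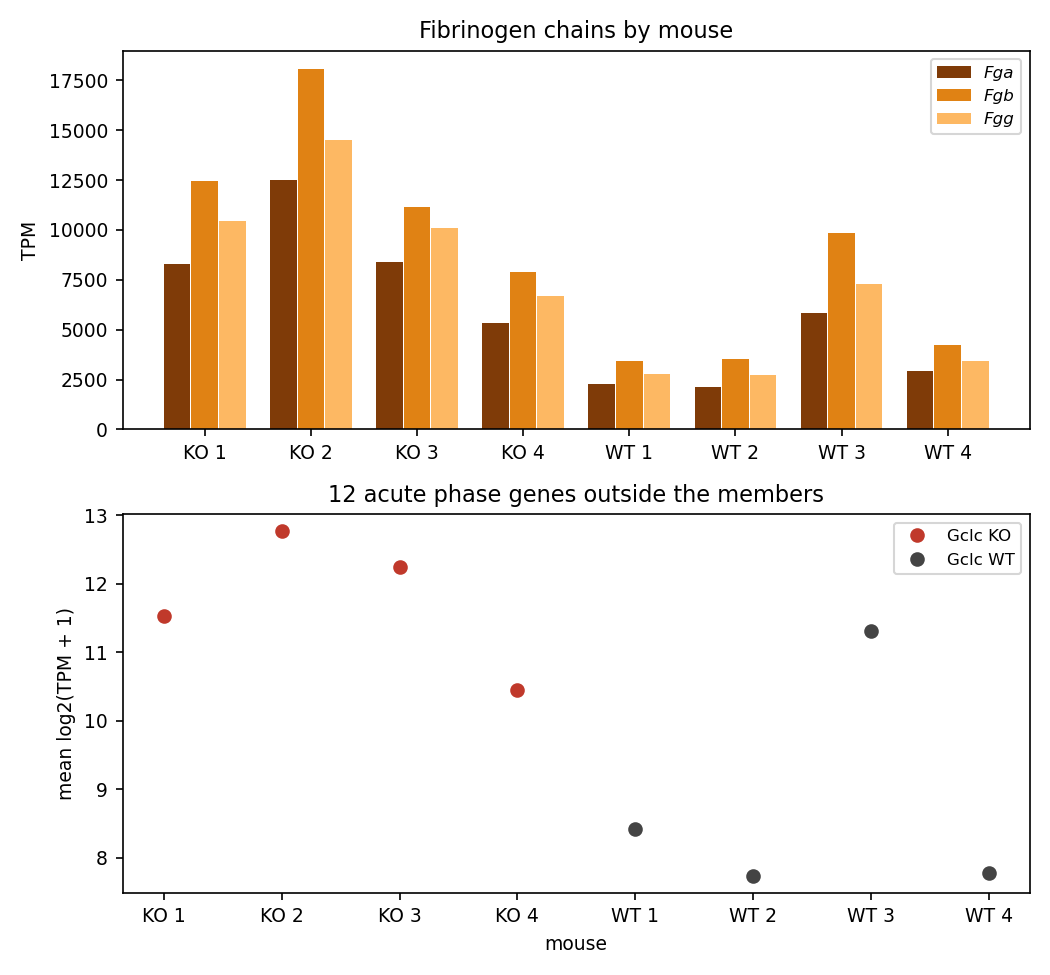
Top, TPM (vertical axis) of Fga, Fgb and Fgg in each mouse (bars, 1 bar per gene and mouse); bottom, mean log2(TPM + 1) per mouse (points) of 12 acute phase genes outside the members. Fgb is the highest and Fga the lowest chain in each of the 8 mice, and in both panels Gclc KO 2 is highest and Gclc WT 3 lies above Gclc KO 4.

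Because the 3 chain genes moved together, the 250 bases before each transcription start are shown, from the RefSeq promoter table (GRCm38.p6), 5′ to 3′ on the gene's own strand. Fga lies at chr3:83025903-83026152 on the plus strand, Fgb at chr3:83049864-83050113 on the minus strand and Fgg at chr3:83007474-83007723 on the plus strand. Capitals mark exact matches, on either strand, to GTTAAT (part of a site for HNF1, a hepatocyte factor), TTGCAA (part of a C/EBP site) or CTGGGAA (the core of the element through which interleukin 6 acts on these genes).
Fga: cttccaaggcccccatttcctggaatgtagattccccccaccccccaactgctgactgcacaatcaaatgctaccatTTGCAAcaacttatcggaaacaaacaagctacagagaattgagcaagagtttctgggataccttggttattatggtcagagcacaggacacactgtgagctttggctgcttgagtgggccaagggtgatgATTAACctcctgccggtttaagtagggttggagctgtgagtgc
Fgb: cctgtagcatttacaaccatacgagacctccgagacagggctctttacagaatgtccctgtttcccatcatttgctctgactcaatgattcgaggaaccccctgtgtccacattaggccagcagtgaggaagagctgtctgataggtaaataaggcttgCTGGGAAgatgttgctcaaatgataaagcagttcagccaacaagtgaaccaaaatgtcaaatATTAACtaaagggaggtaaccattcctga
Fgg: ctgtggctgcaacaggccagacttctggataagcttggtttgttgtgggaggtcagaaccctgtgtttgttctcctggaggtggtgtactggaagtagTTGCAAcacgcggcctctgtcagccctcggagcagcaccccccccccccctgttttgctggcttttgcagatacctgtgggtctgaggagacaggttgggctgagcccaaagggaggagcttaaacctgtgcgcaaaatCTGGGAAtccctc
In Fga the GTTAAT match began 43 bases and the TTGCAA match 173 bases before the start. In Fgb the GTTAAT match began 29 bases and the CTGGGAA match 91 bases before it. In Fgg the CTGGGAA match began 13 bases and the TTGCAA match 152 bases before it. A match is a description of letters and not evidence of a bound site.

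Windows of 300 bases, from 250 before to 50 after a start, were found for 24 of the 32 members (26 windows) and compared with 32841 windows of the whole table. GTTAAT was present in 19.2% of member windows, those of F13b, F2, Fga, Fgb and Proz, and in 7.10% of all windows. TTGCAA was in 11.5% of member windows (Fga, Fgg and Kng2) and 6.24% of all windows. CTGGGAA was in 19.2% of member windows (F9, Fgb, Fgg, Kng2 and Tfpi) and 11.1% of all windows. The STAT motif, TTC and GAA with 3 or 4 free bases between, was in 19.2% of member windows (F9, Fga, Fgb, Pros1 and Tfpi) and 14.6% of all windows. CAAAGTC, the core for the hepatocyte factor HNF4, was in 3.85% of member windows (Tfpi) and 4.44% of all windows. The C/EBP letters were found in Fga, Fgg and Kng2, which were called higher, and not in Fgb, which was called higher too. The HNF1, interleukin 6 and STAT letters were each found in genes called higher and in genes not called. Serpina10 and Thbd, also called higher, had no window. Whether any of these letters go with the calls was not tested. The motif matches in the windows of Fga, Fgb and Fgg did not overlap one another.

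F13b, the gene of the carrier subunit of factor XIII, was not called. It was at 164 ± 26.9 TPM in Gclc KO and 174 ± 18.1 TPM in Gclc WT livers (log2 fold change −0.09, 95% interval −0.41 to 0.23). F13a1, made largely outside hepatocytes, was listed at 0.203, 0.125, 0.48 and 0.507 TPM in Gclc KO mice 1 to 4, against 0.237, 0.135, 0.93 and 0.07 TPM in Gclc WT mice 1 to 4, below the level that was tested in 8 of 8 mice.

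None of the 8 procoagulant factors was called by limma, and at an unadjusted p under 0.05 there were 3 lower (F5, F8 and F10) and 0 higher. F2, the prothrombin gene, was the most abundant, at 1291 ± 153 TPM in Gclc KO and 1348 ± 182 TPM in Gclc WT livers, with a log2 fold change of −0.06 and an interval of −0.41 to 0.29. F9 (factor IX) was at 175 ± 17.97 TPM in Gclc KO and 158 ± 32.1 TPM in Gclc WT livers (interval −0.19 to 0.51). F7 (factor VII), which pairs with tissue factor, was at 74.8 ± 10.96 TPM in Gclc KO and 88.6 ± 23.02 TPM in Gclc WT livers (interval −0.62 to 0.17). F5, the cofactor that lets factor Xa make thrombin, had 131, 121, 102 and 116 TPM in Gclc KO mice 1 to 4, against 137, 146, 176 and 149 TPM in Gclc WT mice 1 to 4. The genotypes did not overlap for F5, and its log2 fold change of −0.37 missed the threshold (adjusted p = 0.0607, limma). F10 (factor X) was at 230.2 ± 61.3 TPM in Gclc KO and 315 ± 53.97 TPM in Gclc WT livers, with a log2 fold change of −0.48 (adjusted p = 0.124, limma). F8, the cofactor of factor IX, was at 3.08 ± 0.453 TPM in Gclc KO and 5.15 ± 1.605 TPM in Gclc WT livers (log2 fold change −0.56, adjusted p = 0.0779, limma). Under trimmed mean of M values or median of ratios scaling, F5 (adjusted p = 0.0133 and 0.0146) and F8 (0.0472 and 0.0496) passed the threshold as lower. F8 also passed as lower without Gclc WT 4 (log2 fold change −0.75, adjusted p = 0.0194), and likewise where Xist entered the fit (−0.64, 0.0444). Over all alternatives the adjusted p ranged from 1.18e-05 to 0.205 for F5 and from 0.0085 to 0.197 for F8. The call of both genes thus depended on the scaling, among other settings. F3, which encodes tissue factor, was at 2.74 ± 1.32 TPM in Gclc KO and 3.25 ± 1.05 TPM in Gclc WT livers (interval −0.79 to 0.37). Vwf, which encodes von Willebrand factor, was near the filter, at 1.63 ± 0.473 TPM in Gclc KO and 1.54 ± 0.421 TPM in Gclc WT livers (interval −0.37 to 0.46). The widths of these intervals do not show that any of the 8 genes was equal between genotypes.

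The contact system starts clotting on a surface and also releases bradykinin from kininogen. Klkb1 (Entrez 16621), which encodes plasma prekallikrein, the protease that cuts kininogen, had 98.6, 96.7, 58.1 and 68.9 TPM in Gclc KO mice 1 to 4, against 143, 163, 187 and 179 TPM in Gclc WT mice 1 to 4. Each Gclc KO mouse was below each Gclc WT mouse. The mean was 80.6 ± 20.2 TPM in Gclc KO and 168 ± 19.5 TPM in Gclc WT livers (SD, n = 4 each), 2.11-fold lower on the log2(TPM + 1) scale (log2 fold change −1.08, SE 0.18, adjusted p = 0.00482, limma), and the call held under all 25 alternatives, with log2 fold changes of −1.18 to −0.93 and adjusted p of 3.32e-10 to 0.0183. Of the 31-base stretches in the Klkb1 transcript, 43.2% also occur, on either strand, in transcripts of another annotated gene, mostly Gm45753. Reads of stretches shared on the same strand could have been divided between the genes by the authors' counting. The strands were not counted apart.

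Mice have a pair of kininogen genes. Kng2 (Entrez 385643), the less abundant, had 561, 698, 606 and 388 TPM in Gclc KO mice 1 to 4, against 213, 271, 506 and 271 TPM in Gclc WT mice 1 to 4, and was 1.84-fold higher (log2 fold change 0.88, SE 0.27, adjusted p = 0.0465, limma). Gclc WT 3 lay above Gclc KO 4, as in the fibrinogen genes. The call for Kng2 was kept without Gclc WT 3 (log2 fold change 1.13, adjusted p = 0.00552) and without Gclc KO 4, and was lost without each of the other 6 mice (log2 fold changes 0.72 to 0.87, adjusted p 0.0940 to 0.116), with trimmed mean of M values (0.0668) and median of ratios scaling (0.0627), in batch 2 alone (0.0674), with the mouse tag cohort as a covariate (0.0617) and with no filter on low values (0.0786). Its adjusted p ranged from 7.08e-06 to 0.116 over the alternatives. Kng1, the main kininogen gene, was at 3049 ± 959 TPM in Gclc KO and 2207 ± 926 TPM in Gclc WT livers and was not called (log2 fold change 0.50, interval −0.199 to 1.199, adjusted p = 0.278, limma). Kng2 made up 15.8 ± 1.95% of the kininogen sum in Gclc KO and 12.6 ± 0.581% in Gclc WT livers, with ranges of 13.9 to 18.5% and 11.9 to 13.3%. These genes share 860 stretches of 31 bases, 26.5% of those of Kng1 and 32.3% of those of Kng2, so the division of reads between them is uncertain. F11 (factor XI) was at 51.3 ± 6.37 TPM in Gclc KO and 50.4 ± 4.35 TPM in Gclc WT livers and was not called (interval −0.25 to 0.29). F12 (factor XII), which starts the contact system, was at 356 ± 22.5 TPM in Gclc KO and 319.7 ± 46.3 TPM in Gclc WT livers and was not called either (interval −0.13 to 0.46).

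**Figure D3:**
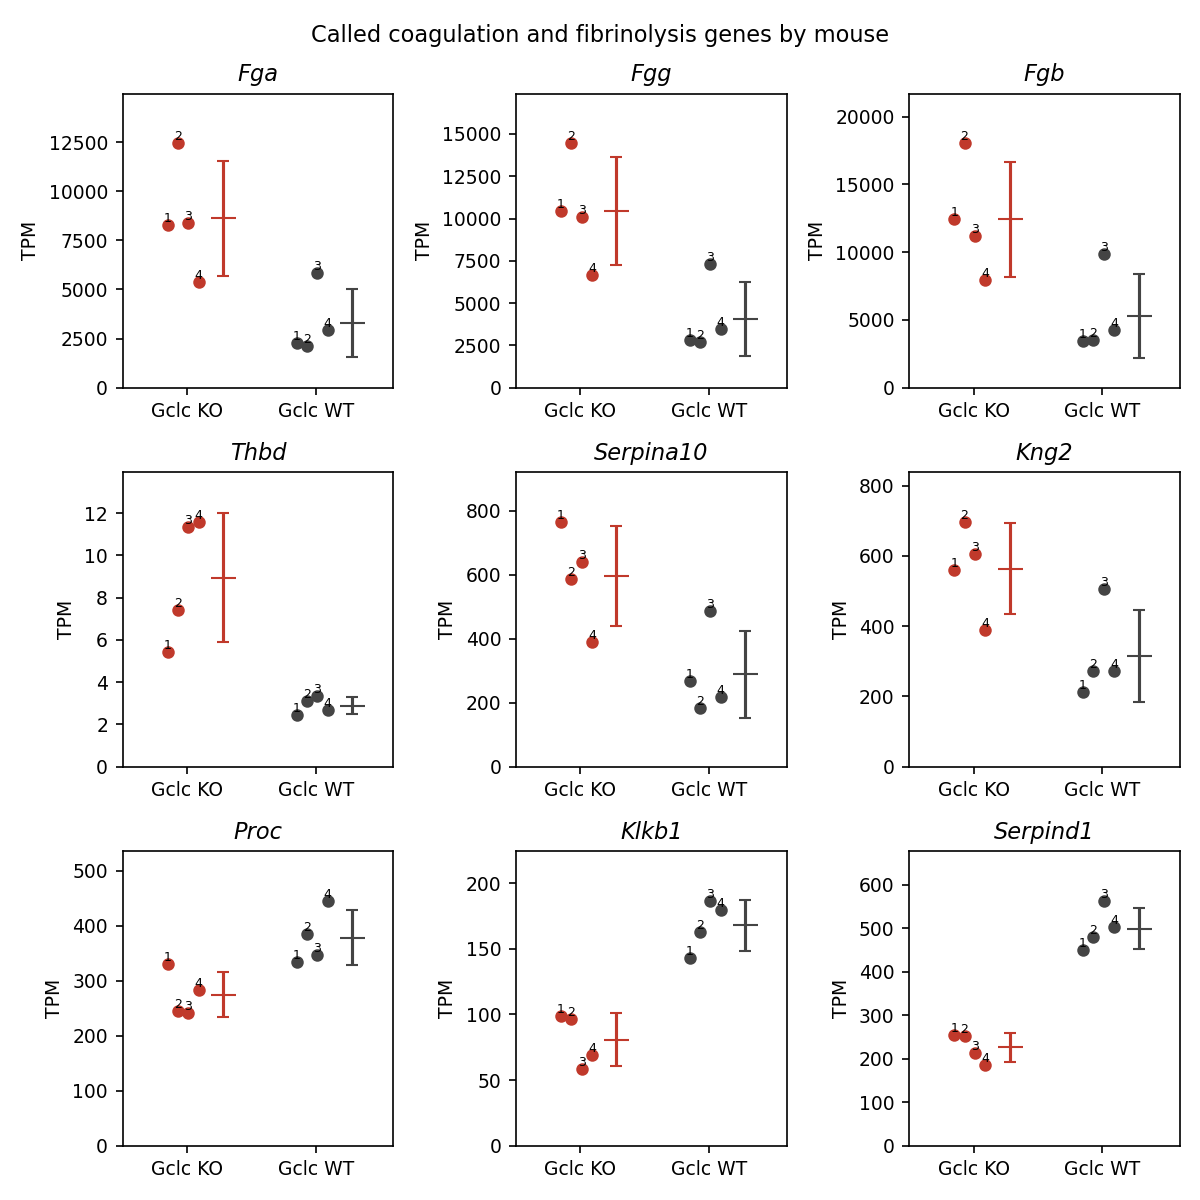
TPM (vertical axis, from 0, a separate scale per gene) of the 9 called genes in each mouse (points, numbered by mouse), with the mean and SD of each genotype beside them (n = 4 each). Gclc KO mice lie below all Gclc WT mice for Proc, Klkb1 and Serpind1 and above them for Thbd, whereas Gclc WT 3 lies above Gclc KO 4 for Fga, Fgg, Fgb, Serpina10 and Kng2.

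Of the 8 tested anticoagulant genes, 2 were called higher and 2 lower. Serpind1 (Entrez 15160) encodes heparin cofactor II, a serpin that inhibits thrombin. It had 255, 252, 212 and 186 TPM in Gclc KO mice 1 to 4, against 450.3, 480.3, 564 and 503 TPM in Gclc WT mice 1 to 4. The genotypes did not overlap, and the mean was 226 ± 33.3 TPM in Gclc KO and 499 ± 48.1 TPM in Gclc WT livers (SD, n = 4 each), 2.21-fold lower (log2 fold change −1.15, SE 0.14, adjusted p = 0.00114, limma). This was the largest fall among the members, and it held under all 25 alternatives, with log2 fold changes of −1.25 to −1.06 and adjusted p of 3.01e-14 to 0.00663. Serpinc1, the antithrombin gene and the other thrombin-inhibiting serpin of the list, was at 1225 ± 159.9 TPM in Gclc KO and 1367 ± 203 TPM in Gclc WT livers (log2 fold change −0.15, interval −0.52 to 0.21, adjusted p = 0.527, limma). Of the Serpinc1 stretches of 31 bases, 57.9% are shared, on either strand, with transcripts of another gene, mostly Zbtb37.

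Serpind1 and Klkb1, the members with the largest falls, were also the only ones of the 24 members with windows that held TGACNNNGC, the core of the antioxidant response element bound by NRF2 (7.69% of member windows against 12.4% of all windows). The 250 bases before each start are shown from the same table, with Serpind1 at chr16:17331121-17331370 on the plus strand and Klkb1 at chr8:45294836-45295085 on the minus strand. Capitals mark the match, which began 68 bases before the start in Serpind1 and, on the opposite strand, 146 bases before it in Klkb1.
Serpind1: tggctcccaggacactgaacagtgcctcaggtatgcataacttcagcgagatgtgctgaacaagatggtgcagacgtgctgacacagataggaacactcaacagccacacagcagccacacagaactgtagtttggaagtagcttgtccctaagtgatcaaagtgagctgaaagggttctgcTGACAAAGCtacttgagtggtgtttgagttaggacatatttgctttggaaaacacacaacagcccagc
Klkb1: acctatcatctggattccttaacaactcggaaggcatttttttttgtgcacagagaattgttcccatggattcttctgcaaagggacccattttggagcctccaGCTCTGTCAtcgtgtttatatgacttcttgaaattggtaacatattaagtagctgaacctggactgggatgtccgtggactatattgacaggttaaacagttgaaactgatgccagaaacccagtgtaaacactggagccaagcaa
The share of member windows with this motif was below that of all windows, and nothing about the factor is drawn from it. Proc, also called lower, had no window.

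Thbd (Entrez 21824) encodes thrombomodulin, the endothelial receptor that turns thrombin towards activating protein C. It had 5.41, 7.41, 11.4 and 11.6 TPM in Gclc KO mice 1 to 4, against 2.46, 3.09, 3.33 and 2.69 TPM in Gclc WT mice 1 to 4. Every Gclc KO mouse was above every Gclc WT mouse, and the mean was 8.94 ± 3.04 TPM in Gclc KO and 2.89 ± 0.3905 TPM in Gclc WT livers (SD, n = 4 each), 2.47-fold higher (log2 fold change 1.30, SE 0.22, adjusted p = 0.00445, limma). The call held in each of the 24 alternatives that tested it, with log2 fold changes of 1.14 to 1.54. It is a low gene, and its 4 libraries of a mouse varied by 11.3 to 47.6% (coefficient of variation). Of 10 endothelial markers, 1 was called higher (Lyve1, log2 fold change 1.18) and 1 lower (Kdr, −0.58), and their summed level overlapped, at 125 to 203 TPM in Gclc KO and 127 to 194 TPM in Gclc WT livers. The summed level of 9 Kupffer cell markers did not overlap, at 718 to 1222 TPM in Gclc KO and 247 to 664 TPM in Gclc WT livers, with 5 called higher and 0 lower. The part of this shift in the Thbd result was not tested.

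Proc (Entrez 19123), the gene of protein C, which inactivates factors Va and VIIIa, had 329.6, 246, 242 and 283 TPM in Gclc KO mice 1 to 4, against 335, 386, 347 and 446 TPM in Gclc WT mice 1 to 4. The genotypes did not overlap, but the nearest mice, Gclc KO 1 and Gclc WT 1, differed by little. It was 1.38-fold lower (log2 fold change −0.46, SE 0.15, adjusted p = 0.0492, limma). The adjusted p was just inside the threshold and ranged from 7.08e-06 to 0.17 over the alternatives. The call was kept without Gclc KO 1 or Gclc WT 3 and lost without each of the other 6 mice, with log2 fold changes of −0.52 to −0.38 and adjusted p of 0.0557 to 0.127, and it was lost within batch 1 alone (0.0529) and within batch 2 alone (0.0589). With Xist as a covariate the log2 fold change of Proc was −0.40 (adjusted p = 0.0542), and in the mice without Xist it was −0.34 (0.17), so the call was lost in both. It was also lost with the mouse tag cohort as a covariate (0.0696), with the replicate block (0.0851) and with no filter on low values (0.0654). Pros1, which encodes the protein C cofactor protein S, was at 69.1 ± 8.85 TPM in Gclc KO and 51.5 ± 15.1 TPM in Gclc WT livers (log2 fold change 0.45, adjusted p = 0.115, limma), and passed as higher without Gclc WT 3 (0.63, adjusted p = 0.0111) and in the mice without Xist (0.52, 0.041).

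Serpina10 (Entrez 217847) encodes the protein Z-dependent inhibitor of factor Xa. It had 766, 588, 638 and 388 TPM in Gclc KO mice 1 to 4, against 268, 184, 485 and 216 TPM in Gclc WT mice 1 to 4. Its mean was 2.15-fold higher in Gclc KO livers (log2 fold change 1.10, SE 0.31, adjusted p = 0.0319, limma). The call was kept without Gclc WT 3 (log2 fold change 1.39, adjusted p = 0.00396) and without Gclc KO 4, and lost without each of the other 6 mice (0.92 to 1.10, adjusted p 0.0643 to 0.0910), in batch 2 alone (0.0506) and with no filter on low values (0.0588). Proz, which encodes protein Z, the cofactor of this inhibitor, was at 218 ± 34.9 TPM in Gclc KO and 283 ± 44.1 TPM in Gclc WT livers (log2 fold change −0.38, adjusted p = 0.109, limma), and passed as lower with trimmed mean of M values (0.0402) or median of ratios scaling (0.0431). Over all alternatives its adjusted p ranged from 0.000455 to 0.31. Tfpi, which encodes tissue factor pathway inhibitor, was at 3.203 ± 0.498 TPM in Gclc KO and 4.24 ± 1.197 TPM in Gclc WT livers, with an interval of −0.71 to 0.13, and was not called under any alternative.

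Fibrinolysis is the removal of fibrin by plasmin, and none of its 5 tested genes was called by limma, with 1 (Cpb2) higher and 0 lower at an unadjusted p under 0.05. Plg, the plasminogen gene, was at 2165 ± 224 TPM in Gclc KO and 1758 ± 367 TPM in Gclc WT livers (log2 fold change 0.32, interval −0.08 to 0.71). Serpinf2, which encodes the plasmin inhibitor alpha-2-antiplasmin, was at 650.2 ± 87.2 TPM in Gclc KO and 584 ± 151 TPM in Gclc WT livers (interval −0.24 to 0.60). Cpb2 encodes a carboxypeptidase that trims fibrin and so protects it from plasmin. It had 1115, 1481, 1230.2 and 701 TPM in Gclc KO mice 1 to 4, against 449, 435, 1086 and 423 TPM in Gclc WT mice 1 to 4. The log2 fold change of Cpb2 was 1.00 (interval 0.24 to 1.75, adjusted p = 0.0619, limma), and Gclc WT 3 was above Gclc KO 4, with the other Gclc WT mice below all Gclc KO mice. It passed as higher without Gclc WT 3 (1.33, adjusted p = 0.00478), without Gclc KO 4 (1.21, 0.0461), with Xist as a covariate (0.77, 0.0253) and in the mice without Xist (1.02, 0.0179), and its adjusted p ranged from 2.49e-05 to 0.155. Hrg, which encodes histidine-rich glycoprotein, a plasma protein that binds plasminogen and heparin, had 2423, 2618, 1872 and 1701 TPM in Gclc KO mice 1 to 4, against 1308, 1431, 2340 and 1363 TPM in Gclc WT mice 1 to 4. Hrg was not called with all mice (log2 fold change 0.44, adjusted p = 0.199, limma) and passed as higher without Gclc WT 3 (0.63, adjusted p = 0.0352). Plau, which encodes urokinase, was at 1.19 ± 0.3703 TPM in Gclc KO and 0.968 ± 0.246 TPM in Gclc WT livers, the only tested member with a genotype mean under 1 TPM. Plat was listed at 0.315, 0.522, 0.777 and 1.11 TPM in Gclc KO mice 1 to 4, against 0.603, 0.312, 1.202 and 0.2 TPM in Gclc WT mice 1 to 4.

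The members also differed between mice of 1 genotype, and did so together. Gclc WT 3 was the highest Gclc WT mouse for 24 of the 30 genes, against 45.0% of all genes tested, and Gclc WT 1 the lowest for 17, against 39.6% of all genes tested. Among Gclc KO mice, Gclc KO 2 was highest for 14 and Gclc KO 1 for 13 of the 30 genes, against 21.3% and 18.8% of all genes tested, and Gclc KO 4 was lowest for 16, against 12.7%. Members share the tissue piece and the library, so these counts are a description.

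**Figure D4:**
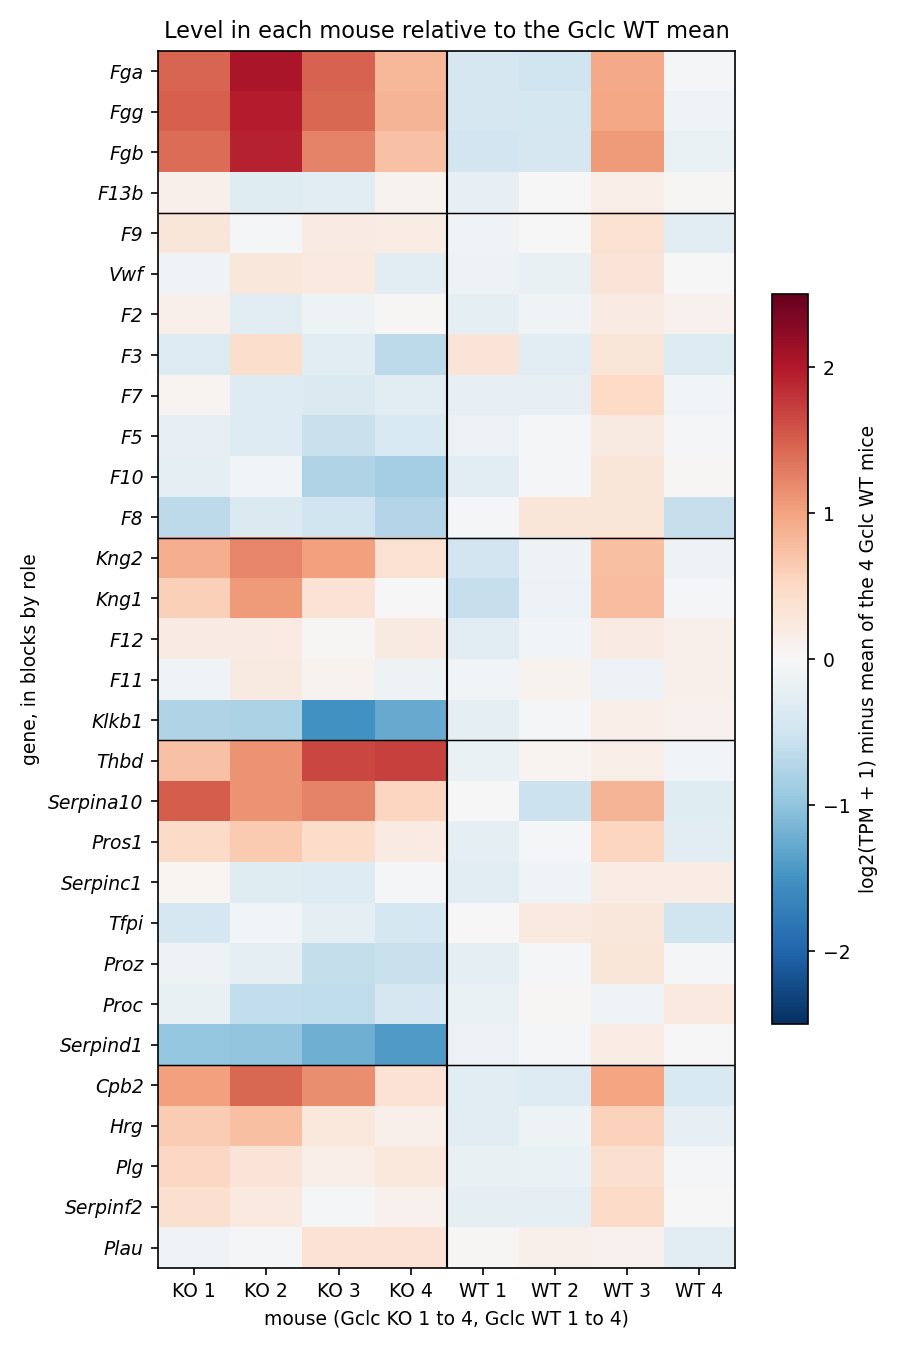
Log2(TPM + 1) of each tested gene (rows, in blocks by role) in each mouse (columns), minus the mean of the 4 Gclc WT mice (colour, red higher and blue lower). The columns of Gclc KO 2 and Gclc WT 3 are red for fibrinogen, Kng2, Kng1, Cpb2 and Hrg, while Klkb1 and Serpind1 are blue in the 4 Gclc KO mice and near 0 in Gclc WT 3.

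Averaged over 12 acute phase genes outside the members, the level was also highest in Gclc KO 2 and higher in Gclc WT 3 than in Gclc KO 4. Of these genes (Hp, Saa1, Saa2, Saa3, Orm1, Orm2, Lcn2, Hamp, Apcs, Itih3, Crp and Cp), 8 were called higher and 0 lower, with a median log2 fold change of 2.54 (10 higher and 0 lower at an unadjusted p under 0.05). Their mean log2(TPM + 1) was 11.53, 12.76, 12.24 and 10.45 in Gclc KO mice 1 to 4, against 8.41, 7.74, 11.30 and 7.78 in Gclc WT mice 1 to 4. Singly, 9 of the 12 genes were highest in Gclc KO 2, 9 were higher in Gclc WT 3 than in Gclc KO 4, and 7 (Saa1, Saa2, Saa3, Orm1, Lcn2, Apcs and Itih3) had both features. Apcs, which encodes serum amyloid P, had 942, 1826, 1045 and 565 TPM in Gclc KO mice 1 to 4, against 72.8, 64.3, 719 and 97.4 TPM in Gclc WT mice 1 to 4. Hamp, which encodes the iron hormone hepcidin, had 5276, 7057, 7272 and 6798 TPM in Gclc KO mice 1 to 4, against 1829, 1315, 1415 and 3028 TPM in Gclc WT mice 1 to 4, with Gclc KO 3 highest and Gclc WT 3 among its own group. The part of the acute phase level in the fibrinogen result was not tested.

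Leaving out each mouse in turn kept some of the calls and not others. Serpind1, Klkb1 and Thbd were called in 8 of 8 such fits. Fgg was called in 4, Fga in 3, and Fgb, Serpina10, Kng2 and Proc in 2 each. The number of members called ranged from 1 to 9 higher and from 2 to 3 lower. Without Gclc WT 3 the 9 called higher were Fga, Fgb, Fgg, Serpina10, Kng2, Thbd, Cpb2, Hrg and Pros1.

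**Figure D5:**
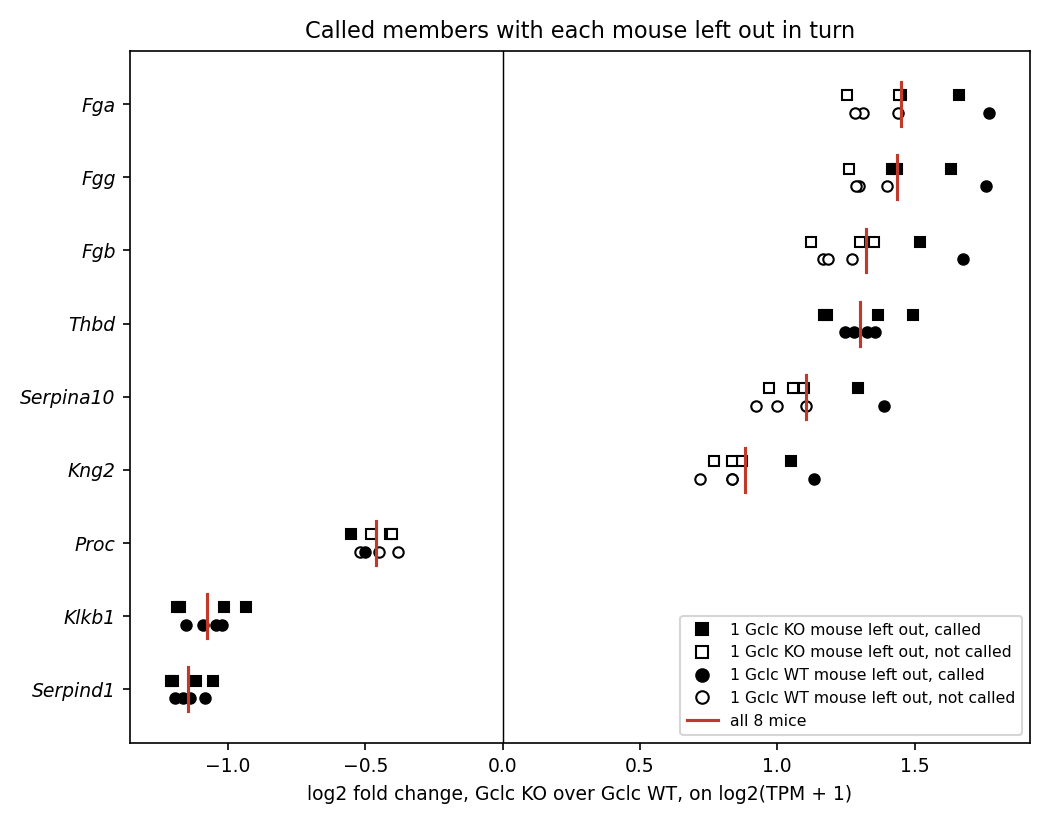
Log2 fold change of Gclc KO over Gclc WT on the log2(TPM + 1) scale (horizontal axis) for the 9 called genes with 1 Gclc KO mouse (squares) or 1 Gclc WT mouse (circles) left out; filled symbols are called, open ones not, and the red line is the value with all 8 mice. All 8 symbols of Thbd, Klkb1 and Serpind1 are filled, and the symbol farthest right for Fga, Fgg, Fgb, Serpina10 and Kng2 is the fit without Gclc WT 3.

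Genes that act around the cascade but are not members were counted from a list of 27 inhibitors, receptors and relatives, of which 17 were tested. Of these, 3 were called higher, 2 lower and 12 not, with a median log2 fold change of 0.04. Among those called higher, Procr and Plaur had Gclc WT means of 0.968 and 0.53 TPM. They passed the filter of 1 TPM only through the Gclc KO mice, where they were higher, so their calls are a description. Procr, the endothelial protein C receptor gene, had 2.22, 3.31, 4.397 and 1.55 TPM in Gclc KO mice 1 to 4, against 1.14, 1.14, 0.95 and 0.647 TPM in Gclc WT mice 1 to 4 (log2 fold change 0.93, adjusted p = 0.0233, limma), and lost its call without Gclc KO 2, Gclc KO 3, Gclc WT 2 or Gclc WT 4 and in batch 2 alone (adjusted p 0.0510 to 0.114). In the mice without Xist its log2 fold change was 0.55 and the call was lost (adjusted p = 0.103). The receptor for urokinase, Plaur, had 1.18, 2.09, 2.15 and 1.16 TPM in Gclc KO mice 1 to 4, against 0.688, 0.38, 1.06 and 0 TPM in Gclc WT mice 1 to 4, and its call (log2 fold change 0.81) was lost under 16 of 24 alternatives, among them each mouse left out other than Gclc WT 3, batch 1 alone and the mice without Xist (adjusted p up to 0.133).

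Fgl1 encodes a protein that hepatocytes secrete and that resembles fibrinogen but forms no clot. It had 4017, 4114, 3790.2 and 2490.5 TPM in Gclc KO mice 1 to 4, against 611, 342, 3179.6 and 327 TPM in Gclc WT mice 1 to 4 (log2 fold change 2.37, adjusted p = 0.0281, limma). Gclc WT 3 was again apart from its group and above Gclc KO 4. The log2 fold change of Fgl1 was 3.11 without Gclc WT 3 (adjusted p = 0.000161), and the call was lost without each mouse other than Gclc WT 3 and Gclc KO 4 (2.02 to 2.34, adjusted p 0.0627 to 0.0810), with no filter on low values (0.0555) and with robust empirical Bayes (0.0508). Mug1, which encodes a broad protease inhibitor of rodent plasma, had 689, 917, 393 and 658 TPM in Gclc KO mice 1 to 4, against 1411, 1530.4, 1484 and 1654 TPM in Gclc WT mice 1 to 4 (log2 fold change −1.25, adjusted p = 0.00652, limma), without overlap and called under all 25 alternatives. F2r, the thrombin receptor gene, had 9.45, 7.33, 9.7 and 12.3 TPM in Gclc KO mice 1 to 4, against 17.7, 24.3, 13.8 and 13.3 TPM in Gclc WT mice 1 to 4 (log2 fold change −0.76, adjusted p = 0.0288, limma), and its call was lost without any 1 of Gclc KO 1 to 3 or Gclc WT 1 or 2, in batch 2 alone, with the replicate block, with no filter on low values and in the mice without Xist (adjusted p 0.0521 to 0.0997).

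Prothrombin, factors VII, IX and X and proteins C, S and Z need vitamin K to carboxylate their glutamates. Of 11 genes of the vitamin K cycle and of factor secretion, 3 were called higher, 1 lower and 7 not, with a median log2 fold change of 0.29. Ggcx, which encodes the carboxylase, was at 34.2 ± 4.29 TPM in Gclc KO and 32.5 ± 6.899 TPM in Gclc WT livers (interval −0.26 to 0.43), and Vkorc1, which encodes the reductase that warfarin inhibits, at 236 ± 30.3 TPM in Gclc KO and 226 ± 22.4 TPM in Gclc WT livers (interval −0.23 to 0.35), and neither was called. Mcfd2, which encodes a carrier of factors V and VIII out of the endoplasmic reticulum, had 308, 258, 322 and 357 TPM in Gclc KO mice 1 to 4, against 157, 155, 213 and 163 TPM in Gclc WT mice 1 to 4 (log2 fold change 0.86, adjusted p = 0.00506, limma). Calu, which encodes calumenin, a resident protein of that compartment that can inhibit the carboxylase, was at 99.4 ± 9.13 TPM in Gclc KO and 65.5 ± 10.7 TPM in Gclc WT livers (log2 fold change 0.60, adjusted p = 0.0133, limma). Nqo1, a quinone reductase gene and NRF2 target, was at 93.5 ± 18.99 TPM in Gclc KO and 11.3 ± 4.099 TPM in Gclc WT livers (log2 fold change 2.98). Cyp4f14, of the cytochrome P450 family whose human member CYP4F2 oxidizes vitamin K, was at 43.2 ± 9.27 TPM in Gclc KO and 156 ± 17.6 TPM in Gclc WT livers (log2 fold change −1.84). The genotypes did not overlap for these 4 called genes, and each was called under all 25 alternatives.

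Of 13 transcription factor genes listed as possible regulators of clotting factor genes in liver, 2 were called higher, 1 lower and 10 not, with a median log2 fold change of 0.11. Cebpd, which encodes a C/EBP factor of the acute phase response, had 13.3, 16.5, 18.7 and 22.2 TPM in Gclc KO mice 1 to 4, against 1.98, 7.16, 7.88 and 4.34 TPM in Gclc WT mice 1 to 4 (log2 fold change 1.66, adjusted p = 0.00771, limma), without overlap and called under all 25 alternatives. Stat3, through which interleukin 6 acts, had 82.3, 83.2, 83.7 and 76.3 TPM in Gclc KO mice 1 to 4, against 33.8, 34.9, 72.6 and 34.3 TPM in Gclc WT mice 1 to 4 (log2 fold change 0.96, adjusted p = 0.0181, limma). Gclc WT 3 stood just below the Gclc KO mice and well above the other Gclc WT mice, and without Gclc WT 1, Gclc WT 2 or Gclc WT 4 the call was lost (adjusted p 0.0516 to 0.0585). Foxa1, a factor of hepatocyte identity, had 6.48, 7.65, 5.598 and 5.93 TPM in Gclc KO mice 1 to 4, against 18.3, 12.9, 6.6 and 15.7 TPM in Gclc WT mice 1 to 4 (log2 fold change −0.88, adjusted p = 0.0386, limma), with Gclc WT 3 inside the range of the Gclc KO mice. Its call was kept without Gclc WT 3 and lost without each of the other 7 mice, in batch 2 alone, with no filter on low values and when the 50 genes of highest level were kept out of the scaling total (adjusted p 0.0525 to 0.103).

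Markers of the cells that make these proteins were read beside the members. Of 7 hepatocyte markers, 1 was called higher (Trf) and 1 lower (Cps1), and their sum was 100356 to 172035 TPM in Gclc KO and 74023 to 104698 TPM in Gclc WT livers. Of 7 megakaryocyte and platelet markers, 3 were tested and 0 were called, with sums of 4.32 to 9.38 TPM in Gclc KO and 3.47 to 10.4 TPM in Gclc WT livers. The 8 pancreas markers had 0 called in either direction, and for both lists 0 had an unadjusted p under 0.05. Of 7 stellate cell and fibroblast markers 3 were called lower, and 1 of 6 tested monocyte and neutrophil markers and 1 of 4 tested bile duct markers were called higher. Without Gclc WT 1, the mouse with pancreas RNA, Thbd (log2 fold change 1.25), Serpind1 (−1.19) and Klkb1 (−1.15) kept their calls and the other 6 called members lost theirs.

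The 4 libraries of a mouse agreed closely for abundant genes and less closely for low ones. Among the 4 libraries of a mouse, the coefficient of variation was 0.2699 to 1.502% for Fga, 0.602 to 6.05% for Serpind1 and 17.3 to 103% for Plau. Over the 8 mice the tested members averaged 1.08 TPM (Plau) to 8835 TPM (Fgb), and 6 were under 10 TPM. Over all genes tested, the median SD was 0.169 among the libraries of a mouse, 0.207 among Gclc KO mice and 0.202 among Gclc WT mice on the log2 scale. For fibrinogen the spread was thus between mice and not between libraries.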

How the data were processed

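Per the labels, RNA of whole liver was extracted with a PureLink kit, and a Kapa kit gave strand-specific mRNA libraries. The authors deposited 1 table of TPM, named as normalized counts, for 32 libraries of 8 mice; each library sums to between 999315 and 999534. The submitters' processing notes name bcl2fastq 2.2, whereas the aligner, quantifier, build and annotation were not given in the sources used here. In the labels, libraries are numbered by batch and run without defining these terms, and the 4 of each mouse were averaged in TPM as technical repeats. The table holds 20896 rows, of which 75 repeat a symbol with identical values and were left out.

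The filter kept genes averaging 1 TPM or more across the 8 mice, and log2(TPM + 1) was compared between 4 Gclc KO and 4 Gclc WT mice with limma 3.58.1 in R 4.3.3 (mean-variance trend, two-sided, no covariates, Benjamini-Hochberg adjustment over all 11284 genes, threshold 0.05). The script was tested on simulated data. Fold changes are on this log scale and are too small for genes of low level. Depth is unknown, so no counting intervals are given and no count model was fitted. P-values measure the spread between mice. The 25 alternatives covered pseudocounts, filters, scaling, variance model, replicate block, mouse tag cohort (tags under or over 100), batch, library as unit, Xist and each mouse left out.

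All members were accounted for. The called members and the fibrinogen chains are given per mouse, and up to 6 called genes of each other list, with Ggcx and Vkorc1, could be named; 2 genes of these lists are not reported here and are left out of the counts over the lists. The members and lists were chosen with earlier results of these data known. Sequences are RefSeq promoter windows matched by Entrez gene ID. Shared stretches were counted in GENCODE vM21 transcripts on either strand, so they include antisense matches, whose reads strand-specific libraries can keep apart. Text and figures used Python 3.11.15 with matplotlib 3.10.9.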

Additional observations from a re-analysis of the deposited data

Results flagged for a closer look

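A set was 1 gene, or the mean of the acute phase, hepatocyte, endothelial or Kupffer cell list, in 1 genotype on the log2(TPM + 1) scale. Among 152 sets of 4 mice examined, 9 (5.92%) held a mouse whose gap to the nearest of the others was over 0.829 of the range of the set. Chance flags about 1 in 20. Of these, 5 concerned Gclc WT 3, always as the highest mouse. It had 10.09 for Cpb2, where the other Gclc WT mice had 8.73 to 8.81, and 11.19 for Hrg, where they had 10.35 to 10.48. It had 12.04 for Itih4, which encodes an acute phase protein cut by plasma kallikrein, where they had 9.74 to 10.07. With all mice Itih4 was not called (log2 fold change 0.96, adjusted p = 0.218, limma), and it was called in 1 of the fits that left out a mouse (adjusted p = 0.0128). For Mcfd2 Gclc WT 3 had 7.74 (others 7.28 to 7.36), and for Stat3 it had 6.2 (others 5.12 to 5.17). Gclc WT 3 was also the only Gclc WT mouse with Xist, so that sex and this mouse cannot be told apart in that group.

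Gclc KO 3 was low for F12, at 8.34 against 8.51 to 8.54 in the other Gclc KO mice. Gclc KO 4 was low for Fgl1, at 11.28 against 11.89 to 12.01. Gclc KO 1 was low for Hnf4a, at 8.64 against 8.77 to 8.78. Gclc WT 1 was low for Aifm2, a vitamin K reductase gene, at 3.95, where the rest of its group had 4.46 to 4.55.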

How the results depend on the processing

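Of 744 values of tested members under the 25 alternatives, 667 kept their side of the threshold, 50 lost a call and 27 gained one, and no called member changed direction. Serpind1, Klkb1 and Thbd kept their calls in every alternative that tested them, the other 6 called members lost theirs in at least 1, 9 members not called passed in at least 1, and 12 passed in none. Of those 9, F10, Kng1 and Plg passed only with the 32 libraries as units. The number of members called higher (6 with all mice) was 1 with no filter on low values, when 17019 genes were tested, and 11 with the 32 libraries as units and the mouse as a random effect. The number called lower (3) was 6 with trimmed mean of M values scaling, 6 with median of ratios scaling and 7 with the libraries as units. That last fit assumes a single correlation of 0.499 between libraries of a mouse for all genes, while for Fga the coefficient of variation among the libraries of a mouse was at most 1.502%. For such genes it counts repeats too much like separate mice, and its adjusted p are too small. The fit with the libraries as units gave the lowest adjusted p wherever a range over the alternatives is given for a member. Leaving out each mouse gave 1 to 9 members higher, 2 to 3 lower, 698 to 1851 of all genes higher and 557 to 950 lower; the highest counts of higher members and higher genes were without Gclc WT 3 and the lowest count of genes without Gclc WT 2.

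Of all genes, 1439 were called higher and 972 lower, 59.7% higher. With trimmed mean of M values scaling they were 1190 and 1474 (44.7% higher), and with median of ratios scaling 1242 and 1412 (46.8%). These scalings moved the median log2 fold change of all genes by under 0.1, to 0.00 and 0.01, against 0.09. A minimum of 10 TPM left 24 members and 967 and 765 called genes. Whether the replicate numbers paired the mice is not settled here. Same-numbered mice had correlations of 0.06, −0.12, 0.34 and 0.26 in their deviations from the group means. The last 2 of these were above every value between differently numbered mice, of which the highest was 0.22 (Gclc KO 4 with Gclc WT 2). The first 2 were not. Mice alike in Xist had positive correlations and mice unlike in it negative ones, whatever their numbers. These values thus do not separate pairing from shared Xist status. Same-numbered mice also had mouse tags that lay close together. The fit with the replicate block called 7 members higher and 3 lower (1341 and 874 of all genes), with Cpb2 (adjusted p = 0.0396) and F8 (0.0437) gained and Proc (0.0851) lost. Depth is unknown and limits what can be said of Plau, Vwf, F3, Tfpi, F8 and Thbd, the 6 tested members under 10 TPM.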
